A study of Mus musculus with 2 samples.

Results

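Isolated sites are stretches of accessible chromatin that stand alone, with more than 50 kb of DNA without any other listed site on each side. In the list of DNaseI sites of 1 mouse lymphoma, 1850 of 52741 sites on autosomes 1 to 19 were isolated in this sense (3.51%, 95% interval 3.35 to 3.67%), out of 53593 sites in the whole list. The tumour, T6, came from the Eμ-myc model on the C57/Bl6 background, in which an Igh enhancer (Eμ) drives the Myc oncogene in B cells. It was Arf-/- and Trp53+/+, so that it lacked Arf, an inhibitor of Mdm2, and kept the gene for p53. The label gives B cells from lymph nodes, untreated, and per the labels' protocols the suspension was not purified, so other cells of the node could be present. There was 1 library and no replicate, and the input library was not analysed here. The label of the cells could not be checked, because sites are given by position alone and no genes were assigned.

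DNaseI cuts DNA where nucleosomes are missing or displaced. Such places include promoters, enhancers and sites bound by architectural factors such as CTCF, and they usually gather around active genes. Between these groups lie long closed stretches, often poor in genes and attached to the nuclear lamina, in which single open sites can still occur.

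The members were chosen by their gaps, meaning the bases between the end of one site and the beginning of its successor on a chromosome. Gaps, empty stretches and the density of sites nearby are therefore given as descriptions. The rule did not use width, the only other measure in the list. With 1 library, no comparison has a replicate error, no p-value is given, and the 95% intervals (exact binomial for shares, exact Poisson for counts, order statistics for medians) cover counting error only. Neighbouring sites are not independent, so the true error is larger. The list gives no read count or signal, so depth is unknown. Coordinates are mm9, counted from 1. The sequence, repeats and genes at the sites were not analysed here.

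The empty stretches around the members were long and uneven. The shorter of a member's 2 gaps had a median of 81.9 kb (quartiles 61.3 and 137.5 kb), and the longer one a median of 231 kb (quartiles 113 and 694 kb). For the other autosomal sites these medians were 1.89 and 15.6 kb. The longer gap was a median of 2.19 times the shorter one, and the left gap was the longer in 50.97% of members, so that neither side was favoured. Gaps of over 100 kb on both sides were present for 691 members (37.4%), over 200 kb for 305 (16.5%), over 500 kb for 77 (4.16%) and over 1 Mb for 21 (1.14%). The whole stretch from the previous to the next site had a median of 338 kb (313 to 362 kb), and it exceeded 1 Mb for 409 members (22.1%).

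**Figure D1:**
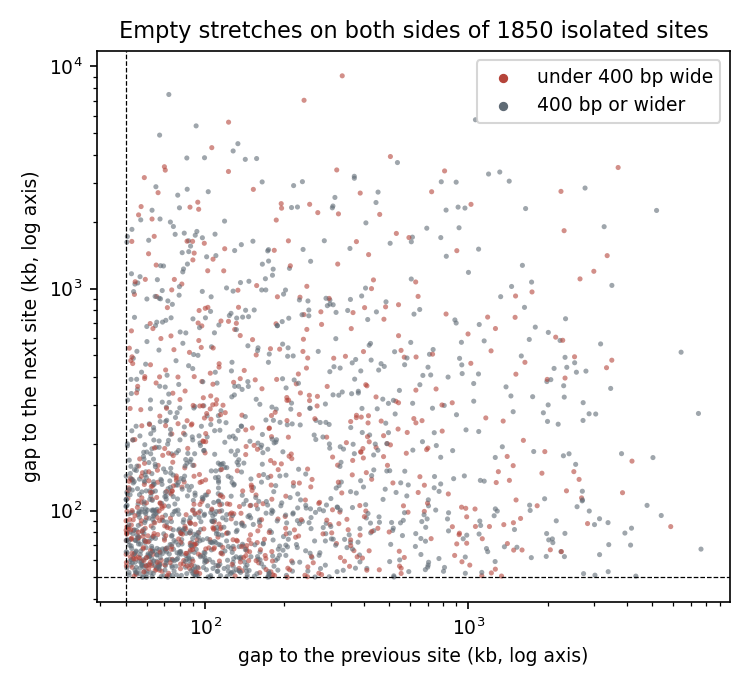
Each point is 1 of the 1850 isolated sites, placed by its gap to the previous site (horizontal, kb, log axis) and to the next site (vertical, kb, log axis). Red points are sites under 400 bp wide, grey points are wider ones, and the dashed lines mark 50 kb; most points lie near the lower left corner, and both colours occur over the whole range.

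Long gaps tended to follow each other. Of all 52722 autosomal gaps, 12.2% were over 50 kb. Among the 6430 sites with such a gap on the left, 28.8% also had one on the right and were members. Among the 46273 sites with a shorter left gap, 9.90% had a long gap on the right. The 3068 gaps that border a member are all over 50 kb by the rule, and they held 1125 Mb. They were 47.7% of the gaps over 50 kb and held 59.2% of the length of such gaps. Of all gaps they were 5.82% by number and 47.7% of the distance between autosomal sites, a contrast that follows in part from the rule. The members themselves covered 1.39 Mb, 3.27% of the 42.6 Mb covered by autosomal sites.

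The most isolated member, by its shorter gap, was chr5:12971149-12971397, with 3.70 Mb empty to its left and 3.51 Mb to its right. It was 249 bp wide, the smallest width in the list. Next came chr12:63095018-63095989, of 972 bp, with 2.77 and 2.83 Mb. A site of 264 bp at chr19:50259560-50259823 had 2.25 and 2.74 Mb, and one of 1346 bp at chr10:105277701-105279046 had 5.18 and 2.25 Mb. Next in order, chr3:113332348-113334049, was 1702 bp wide and had 3.28 and 1.90 Mb. The remaining 5 of the 10 most isolated were on chromosomes 1 (289 bp wide), 18 (650 bp), 8 (475 bp), 3 (249 bp) and 6 (1269 bp). Sites far from any other were thus both narrow and wide: 4 of these 10 were under 400 bp. Their shorter gaps were at least 1.32 Mb, so by this choice all 10 were the only site in their window of 1 Mb.

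The longest empty stretch around a single member was 9.41 Mb at chr3:41878720-41878984, a site of 265 bp, with 0.332 Mb on one side and 9.08 Mb on the other. The next were 7.75 Mb at chr14:87540180-87541642, 7.72 Mb at chr7:46704361-46705665 and 7.55 Mb at chr14:80060748-80061498. The members on chromosome 14 faced each other across the same gap of 7.48 Mb. The remaining one of these 5 stretches, of 7.43 Mb, belonged to the site on chromosome 10 described above. In the first 4 of these 5, nearly all of the stretch lay on 1 side, so these members stood at the edge of an empty stretch rather than in its middle. Unknown sequence in the assembly was not taken out of these lengths.

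At the 50-kb limit the members grade into other sites. Just inside it were chr6:134065220-134065747 (528 bp wide, shorter gap 50.006 kb), chr19:28440591-28440839 (249 bp, 50.033 kb) and chr2:125557238-125557962 (725 bp, 50.05 kb). Just outside were chr19:39056373-39056652 (280 bp, 49.999 kb), chr13:94012809-94013291 (483 bp, 49.984 kb) and chr3:100625554-100625813 (260 bp, 49.965 kb).

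Isolated sites were narrower than the other autosomal sites, through an excess of very narrow sites. Their median width was 587 bp (560 to 615, 1850 sites), against 666 bp (660 to 671) for the 50891 others. Sites under 400 bp, called narrow here, were 36.7% of members (34.5 to 38.9%) and 30.2% of others (29.8 to 30.6%), a difference of 6.47 percentage points (Newcombe interval 4.26 to 8.72). The smallest width of 249 bp was held by 71 members, 3.84% (3.01 to 4.82%), against 2.36% of others (2.23 to 2.50%). The intervals of members and others do not overlap in these shares. With a distance of 20 kb in place of 50 kb the difference in narrow sites was 2.64 percentage points (1.38 to 3.91). It was 10.2 after sites no more than 1 kb apart were merged (8.28 to 12.2). Merging turns narrow sites with a close neighbour into wider ones, so that rise follows in part from the change itself.

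The difference lay in certain widths. Members were more often 249 to 299 bp wide (20.4% against 15.3%) and less often 600 to 999 bp wide (21.9% against 27.6%). The shares at 400 to 599 bp were 14.5% in both. At 1000 bp or more, members had 26.9% (24.9 to 28.9%) and others 27.6% (27.2 to 28.0%), and the upper quartiles were 1076 and 1061.5 bp. Wide sites of over 1500 bp were 10.2% of members (8.87 to 11.7%) and 11.4% of others (11.2 to 11.7%), within counting error. At the far end members were rarer, with 13 sites of over 2500 bp, 0.703% (0.375 to 1.20%), against 1.64% of others (1.53 to 1.75%).

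**Figure D2:**
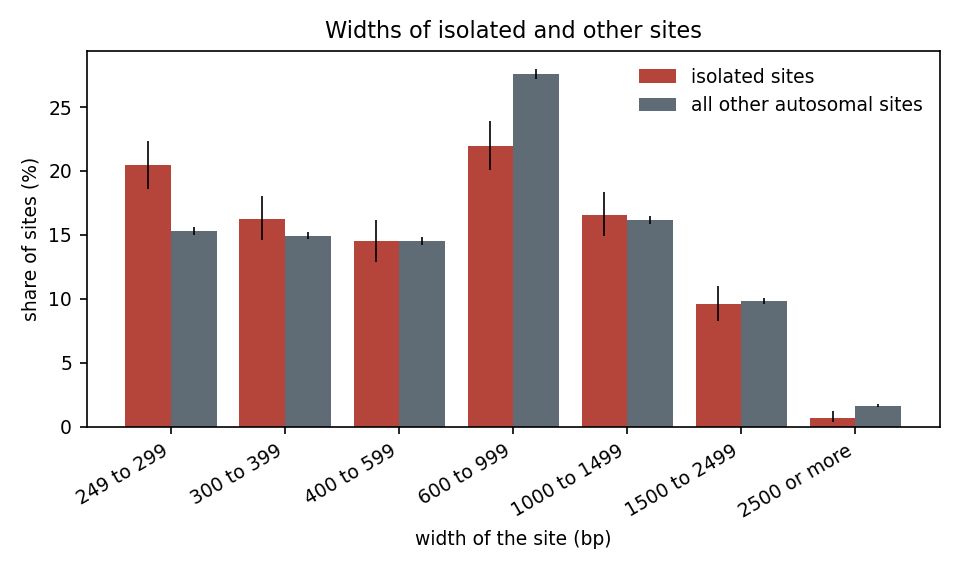
Share of sites (vertical, %) in 7 classes of width (horizontal, bp) for the isolated sites (red) and all other autosomal sites (grey), with exact binomial 95% intervals. The red bar is higher at 249 to 299 bp (20.4% against 15.3%) and lower at 600 to 999 bp (21.9% against 27.6%).

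The other sites are a mixture, since a site with a close neighbour was often narrow as well. Among others with a neighbour within 1 kb, 36.4% were narrow (35.8 to 37.1%, 20775 sites), close to the share among members. Among the 30116 others without such a neighbour, 26.0% were narrow (25.5 to 26.5%) and the median width was 725 bp. Against these, members had 10.7 percentage points more narrow sites (8.51 to 13.0). Ordered by the shorter gap, the share of narrow sites was 39.3% at up to 0.5 kb, 25.1% at 0.5 to 1 kb, 24.9% at 1 to 5 kb and 25.6% at 5 to 20 kb. It was 31.0% at 20 to 50 kb, and among the members 35.5% at 50 to 100 kb, 38.3% at 100 to 200 kb and 39.0% beyond 200 kb (33.5 to 44.7%, 305 sites). Narrow sites were thus frequent at both ends of the range. The intervals at 20 to 50 kb (29.6 to 32.5%) and at 50 to 100 kb (32.8 to 38.4%) just miss each other across the limit, and those of neighbouring classes among the members overlap. Sites of exactly 249 bp were 2.93% of members at 50 to 100 kb (2.04 to 4.08%) and 6.89% beyond 200 kb (4.31 to 10.3%).

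**Figure D3:**
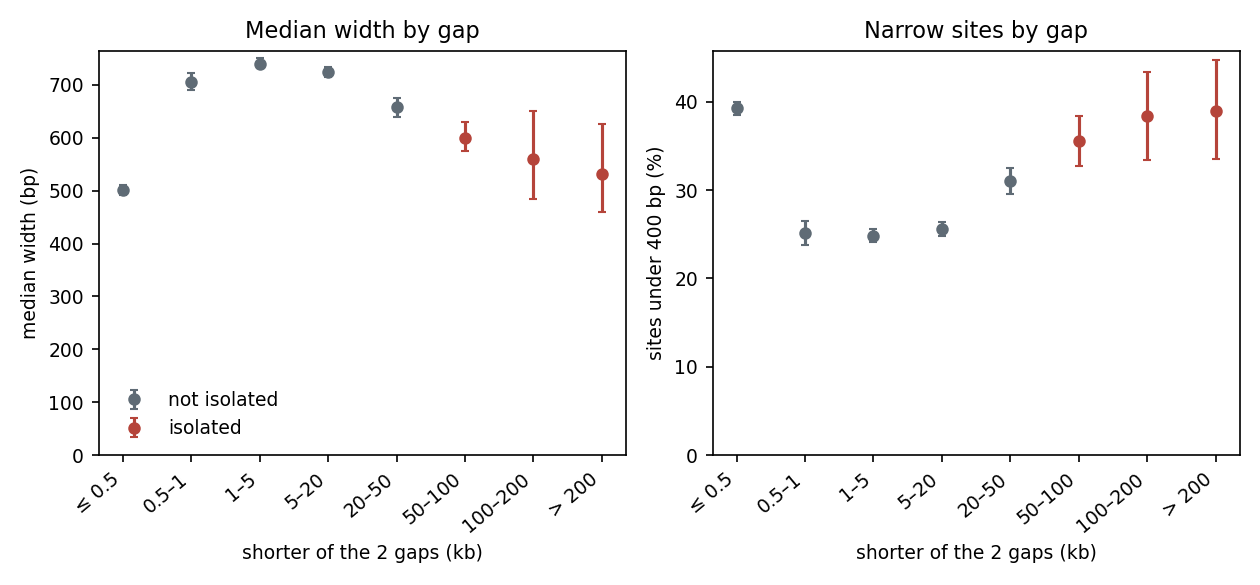
Median width (left, bp) and share of sites under 400 bp (right, %) by the shorter of a site's 2 gaps (horizontal, kb), with 95% intervals, for sites that are not isolated (grey) and isolated sites (red). Median width is highest at 1 to 5 kb (740 bp) and is 532 bp beyond 200 kb, and the share of narrow sites is lowest at 1 to 5 kb (24.9%).

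Single sites resembled small groups. When sites at most 50 kb apart were joined, the autosomes fell into 6456 groups, of which 1862 held 1 site, the members and 12 lone first or last sites of a chromosome. The 992 groups of 2 had a narrow share of 37.2% (35.1 to 39.4%) and a median width of 567 bp (539 to 595), within counting error of the single sites at 36.6% (34.4 to 38.9%) and 587 bp. The narrow share was 33.1% in groups of 3 (30.9 to 35.2%) and 34.6% in groups of 4 to 5 (33.0 to 36.2%). Both intervals overlap that of the single sites. The share was 30.8% in groups of 11 to 20 and 27.5% in groups of more than 50 sites, where the median width was 717 bp. Narrowness was therefore shared with pairs and was not particular to sites that stand alone.

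Members lay in thinly populated windows, which follows in part from the rule. A member had a median of 16 other sites in its window of 1 Mb (quartiles 6 and 32), against 48 for the others (quartiles 29 and 72). Of the members, 117 (6.32%) were alone in their window and 616 (33.3%) had fewer than 10 companions, against 4.51% of the others. A further 166 members (8.97%) were in windows with 50 or more other sites. The extreme was chr17:34849795-34850428, 634 bp wide, with gaps of 58.3 and 82.1 kb in a window with 136 other sites. Members occurred in 1159 of 1897 windows that held any site (61.1%), 1 each in 690 windows, and at most 7 in a window.

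The share of narrow sites was also compared between sparse and dense windows. The narrow share of members was 35.7% with 1 to 9 other sites in the window (31.5 to 40.05%) and 36.7% with 50 or more (29.4 to 44.6%). For the others it was 34.5% (32.5 to 36.5%) and 28.7% (28.1 to 29.3%). The members' intervals are too wide to show whether their share varied with density differently from that of the others. In windows of fewer than 10 sites, members and others were thus within counting error of each other. With 10 to 24 other sites the shares were 35.8% of members (32.0 to 39.7%) and 32.7% of others (31.6 to 33.8%), with intervals that overlap. With 25 to 49 they were 39.7% (35.2 to 44.4%) and 30.8% (30.1 to 31.5%), with intervals that are apart. With 50 or more the members' share was higher, with intervals that only just miss each other.

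Many members had another member as a neighbour, which is tied to the rule, since neighbouring members share a gap. Among all sites with a gap of over 50 kb on the left, 28.8% were members. The 1850 members formed 1218 runs without another site between them: 804 of 1 member, 267 of 2 and 147 of 3 or more, and 1046 members (56.5%) had at least 1 member beside them. The longest run was 10 members over 7058 kb of chromosome 2 (132939246 to 139997066), with widths of 260 to 1972 bp and a median of 690.5 bp. There were 4 runs of 6, and the longest of these by distance spanned 4506 kb of chromosome 9 (15684622 to 20190229) and 3666 kb of chromosome 17 (37406686 to 41072374). The narrow share was 36.7% in runs of 1, 37.5% in runs of 2 and 35.9% in longer runs, so that the spread over runs of different length was small.

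The widest member stood far apart from the rest. It was chr17:39979801-39985912, 6112 bp wide, 1.90 times the next, and it lay in the run on chromosome 17 with 2.57 Mb empty on its left and 420 kb on its right. Only 7 autosomal sites, itself included, were as wide or wider. The next widest were chr12:36881810-36885021 (3212 bp), chr9:115217804-115220735 (2932 bp), chr14:63378396-63381189 (2794 bp) and chr1:16093906-16096688 (2783 bp). Chromosome 1 held 2 more, chr1:167389472-167392230 (2759 bp) and chr1:132611907-132614644 (2738 bp). The list of 10 ended with chr12:53703473-53706164 (2692 bp), chr8:13104118-13106749 (2632 bp) and chr10:51952117-51954709 (2593 bp). Of these, the one on chromosome 12 at 53703473 was deepest in empty sequence, with gaps of 504 and 1598 kb. The shorter gap of the 10 had a median of 87.2 kb, close to the 81.9 kb of all members. The part of repeated sequence in these widths was not tested.

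The density of members varied over a smaller range between chromosomes than that of all sites. Taken over the span between the outermost sites of a chromosome, the autosomes had 0.770 isolated sites per Mb. The highest densities were 0.9996 per Mb on chromosome 9 (0.829 to 1.19, 121 members), 0.997 on chromosome 17 and 0.980 on chromosome 18. The lowest were 0.550 on chromosome 4 (0.439 to 0.681, 84 members), 0.617 on chromosome 5 and 0.630 on chromosome 7. The highest was 1.82 times the lowest, against 2.50 times for all sites. Chromosome 11, with the most sites per Mb (37.6), had 0.673 members per Mb, and chromosome 14, with the fewest (15.1), had 0.706. As a share of a chromosome's own sites, members were most frequent on chromosomes 18 (6.01%, 4.84 to 7.37%), 13 (5.41%) and 1 (4.78%). They were least frequent on chromosomes 11 (1.79%, 1.42 to 2.22%), 5 (2.55%) and 4 (2.55%).

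**Figure D4:**
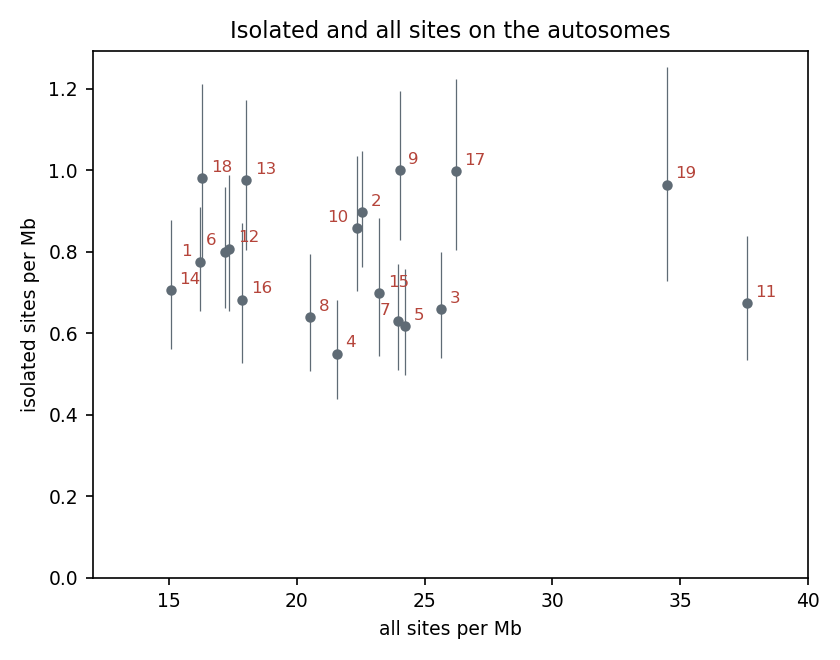
Isolated sites per Mb (vertical, with exact Poisson 95% intervals) against all sites per Mb (horizontal) for autosomes 1 to 19, each labelled with its number. Isolated sites lie between 0.550 and 0.9996 per Mb, and chromosomes 11 and 19, far to the right, lie within the vertical range of the others.

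Along the chromosomes, members were spread more evenly than the other sites. When the span of each chromosome was cut into 5 equal parts, the members fell, from low to high coordinates, as 21.2, 20.4, 20.6, 19.9 and 17.8%. The interval of the last part was 16.1 to 19.7%. The others fell as 16.3, 16.2, 18.3, 20.01 and 29.2%, so that they gathered towards the end with the high coordinates. Mouse autosomes have the centromere at the low-coordinate end. In the last part 2.17% of sites were isolated, against 4.51% in the first. Gaps of over 50 kb are tied to the local density of sites, so these contrasts follow in part from the rule.

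The share of narrow members was highest on chromosomes 3, 11, 15 and 19. The narrow share was higher among members than among others on 18 of 19 autosomes, chromosome 8 being the exception (30.5% against 30.8%). The intervals of members and others separated on chromosomes 11, 15 and 19 and overlapped on the remaining autosomes, such as chromosome 2 (30% against 29.7%). The median width was lower on 17 of 19. On chromosomes 11, 15 and 19, 50% of the members were narrow: 40 of 80, 35 of 70 and 28 of 56. Their intervals were 38.6 to 61.4%, 37.8 to 62.2% and 36.3 to 63.7%, and the other sites of these chromosomes had 28.3, 29.4 and 31.1%. Chromosome 3 followed with 45.6% (35.8 to 55.7%, 103 members), against 35.4% among its other sites. The excess of members over other sites was 18.9 to 21.7 percentage points on chromosomes 11, 15 and 19 and 10.2 on chromosome 3, little above the 10.04 of chromosome 6. On the 15 remaining autosomes the share lay between 30% (chromosome 2, 23.0 to 37.7%) and 40.2% (chromosome 6, 31.2 to 49.6%). The intervals of chromosomes 11 and 15 lay above that of chromosome 2, for chromosome 15 only just. All other intervals of the 4 overlap those of the 15. Median widths of members were 375 to 443 bp on the 4 chromosomes and 528 to 712.5 bp on the 15.

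**Figure D5:**
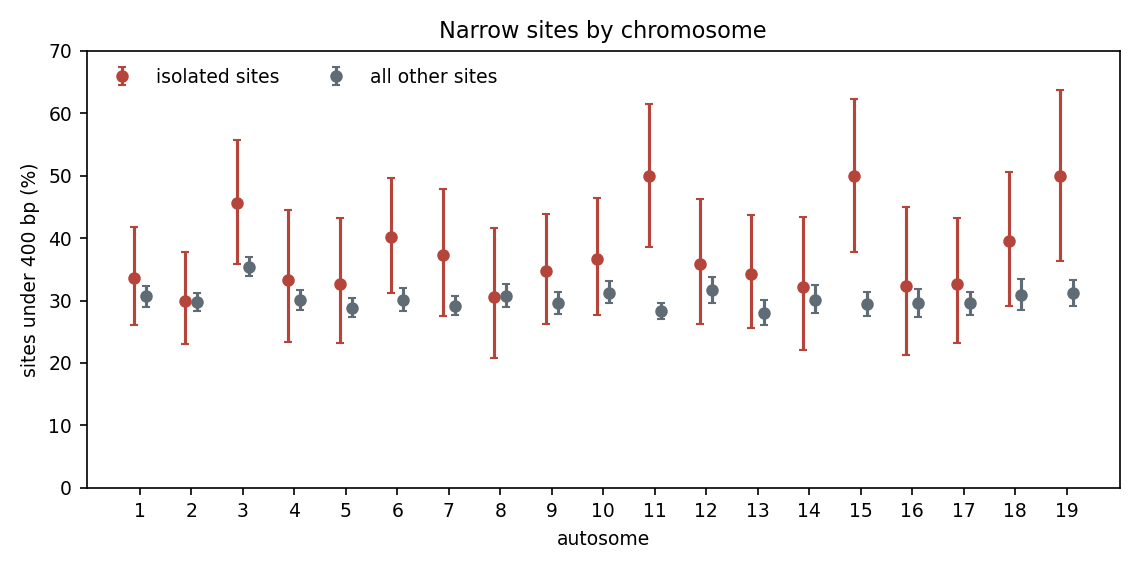
Share of sites under 400 bp (vertical, %) on each autosome for isolated sites (red) and all other sites (grey), with exact binomial 95% intervals. Red points reach 45.6 to 50% on chromosomes 3, 11, 15 and 19 and 30 to 40.2% elsewhere, while grey points stay between 28.0 and 35.4%.

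These 4 chromosomes were picked for their high shares, so the members' own values are a description. Sites with the shorter gap between 20 and 50 kb were not used in that choice. Of these, 38.6% were narrow on the 4 chromosomes (35.1 to 42.1%, 767 sites) and 29.3% on the 15 (27.7 to 30.9%, 3309 sites). Without chromosome 3, the first value was 36.1% (32.0 to 40.4%, 526 sites). Singly, chromosomes 3 and 19 had 44.0 and 43.75%, chromosome 11 had 35.1% and chromosome 15 had 32.3%, and the 15 others ran from 25.1 to 33.7%. Chromosome 15 was thus not apart by this measure. For sites with a neighbour within 1 kb, 35.0% were narrow on the 4 chromosomes (33.7 to 36.3%) and 36.9% on the 15 (36.1 to 37.6%), with intervals that overlap. Between these classes, the 4 chromosomes had 28.3% narrow at 5 to 20 kb (26.6 to 29.99%) against 24.7% (23.8 to 25.6%), and 26.2% at 1 to 5 kb (24.7 to 27.6%) against 24.4% (23.6 to 25.2%). The intervals of the 4 and the 15 chromosomes are thus apart at 5 to 20 and at 20 to 50 kb and overlap at 1 to 5 kb and within 1 kb. Chromosome 3 was left out for the class of 20 to 50 kb alone. Of all its other sites 35.4% were narrow, against 28.3, 29.4 and 31.1% on chromosomes 11, 15 and 19. The difference at 5 to 20 kb was not computed without chromosome 3, so it is not shown for chromosomes 11, 15 and 19.

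Per Mb, the 4 chromosomes had 0.346 narrow members (0.293 to 0.406) and the 15 had 0.269 (0.246 to 0.293). Wider members came to 0.367 per Mb (0.312 to 0.429) and 0.514 per Mb (0.483 to 0.547). The lower density on the 4 chromosomes follows in part from their choice by narrow share. Chromosomes 3, 11 and 15 had 0.359, 0.337 and 0.349 wider members per Mb, below each of the 15 (0.367 to 0.672). Chromosome 19 had 0.482, inside the range of the 15. Narrow members per Mb overlapped, from 0.301 to 0.482 on the 4 and from 0.183 to 0.387 on the 15. Sites of exactly 249 bp were 8.41% of the 309 members on the 4 chromosomes (5.57 to 12.1%) and 2.92% of the 1541 on the 15 (2.14 to 3.89%). These sites are among the narrow ones by which the 4 chromosomes were picked, so this difference is a description as well. Within chromosome 3, the narrow share was 43.75, 46.5 and 46.4% in 3 parts of equal length, and within chromosome 15 it was 45.8, 48 and 57.1%. Chromosome 19 had 12 of 14 members narrow in the first of these parts (57.2 to 98.2%). In the next it had 11 of 28 (21.5 to 59.4%) and 5 of 14 (12.8 to 64.9%), and the 3 intervals overlap. Chromosome 11 had 35.7, 60 and 54.5%. These parts held 14 to 43 members each, so their intervals are wide. The number of copies of each chromosome in this tumour was not measured in this list, and its part in these shares was not tested.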

How the data were processed

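DNaseI sequencing of 1 tumour gave 1 deposited list of sites. Reads were handled with BWA 0.6.2 and SAMtools on mm9, per the submitters' processing notes. How sites were called, at which threshold and with what input correction is not given in the sources used here. In the deposited file there are 3 columns (chromosome, start counted from 0, end) and no value per site. Width depends on the caller and on depth, which is unknown. Sites were sorted by start, and a site was isolated when both gaps exceeded 50000 bp. The first and last site of each autosome (38) were left out of the members and kept among the others. Windows were fixed at 1 Mb and a site was placed by its midpoint. Named sites were the 10 widest, the 10 with the longest shorter gap, the 5 longest stretches, 3 on each side of the limit and the 3 longest runs, ties taken by distance. The members, limits and measures were chosen with earlier results of these data known, and the 4 chromosomes, the classes of window density, the parts of chromosomes after seeing the values. Intervals came from scipy 1.17.1, tables from pandas 2.3.3 and numpy 2.4.6, and figures from matplotlib 3.10.9, under Python 3.11.15. On simulated lists with isolated sites planted by the same rule, every planted site was found in 100 of 100 lists, which checks the code alone. No gene, sequence or motif was analysed, since the tables at hand are of another build.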

Additional observations from a re-analysis of the deposited data

Results flagged for a closer look

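The X chromosome lies outside the rule for members and was looked at for that reason alone, with no control list to set it against. It held 121 sites that met the same distance rule, 16.0% of its 756 sites (13.5 to 18.8%), or 0.756 per Mb. Their median width was 899 bp (757 to 1062), and 16.5% were narrow (10.4 to 24.4%). The other X sites were narrow in 31.8% (28.2 to 35.6%), so the order was the opposite of that on 18 of the autosomes. How many copies of X the tumour had was not measured.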

How the results depend on the processing

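Among 69 values computed under other settings, 43 lay inside the 95% interval of the reported value (for the number of members, inside a factor of 1.5) and 26 lay outside. Several moves were set by the change itself. With a distance of 20 kb there were 5926 isolated sites, with a median width of 635 bp, 32.8% narrow, 11.9% wide, a median of 27 other sites in the window and a median stretch of 129 kb. With 100 kb there were 691, with 549 bp, 8 other sites and 798 kb, and the density on chromosome 3 was 1.09 times the median of the other autosomes, against 0.837 times at 50 kb (0.684 to 1.02), so that it turned from below to above that median. Both intervals include equality. With sites at most 1 kb apart joined first, the median width was 699 bp, 30.4% were narrow and 17.8% wide, and the window held 13 others. Among sites wider than the median alone, these values were 1083 bp, 0%, 21.1% and 10. Without sites of 249 bp, 34.3% were narrow. A limit of 300 bp for narrow gave 20.4%, one of 1000 bp for wide gave 26.9%, and windows of 5 Mb held a median of 94 others. The excess of narrow sites among members, 6.47 percentage points, was 2.64 at 20 kb, 10.2 after joining and 10.7 against others without a neighbour within 1 kb. Without chromosomes 3, 11, 15 and 19 it was 4.39 (2.02 to 6.84). The alternatives for this difference were chosen after seeing the data. No paired analysis was possible because there was 1 library. Without signal per site, no stricter cut on signal was possible.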
